A study of Mus musculus with 11 samples.

Results

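The interferon-inducible GTPases are described here through 10 mouse genes, Gbp2, Gbp3, Gbp4, Gbp6, Gbp7, Igtp, Irgm1, Irgm2, Iigp1 and Ifi47. They were taken by symbol, matched with the GENCODE annotation to the gene identifiers of the count data, and all 10 were found among 55359 counted genes. RNA came from retinal vascular endothelial cells of C57BL/6 mice in the oxygen-induced retinopathy (OIR) model, in which pups are kept in high oxygen and abnormal vessels grow after the return to room air. Cells with CD31 and without CD45 on their surface were collected at P17 by flow cytometry, and the retinas of 1 mouse were pooled into 1 sample. The comparison asks how these cells differ 5 days after an intravitreal injection of oncostatin M (OSM), a cytokine of the interleukin-6 family. Each OSM mouse received 0.5 µL at 100 ng/µL at P12, a dose of 50 ng, and each PBS mouse received vehicle on the same day. There were 5 OSM mice (1, 2, 5, 6 and 9) and 6 PBS mice (3, 4, 7, 8, 10 and 11). All of them went through OIR, so no sample shows the level in a healthy retina. Litter 1 held mice 1 to 4, litter 2 held mice 5 to 8, and litter 3 held mice 9 to 11 with a single OSM mouse. The methods of the study state that contralateral eyes received PBS, but not whether both eyes of a sequenced mouse were treated alike, and the labels give 1 treatment per mouse.

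Interferon-inducible GTPases are proteins with which a cell defends its own interior. Guanylate-binding proteins (GBPs) and immunity-related GTPases (IRGs) assemble on vacuoles that hold parasites or bacteria and break their membranes. Among the IRGs, a small group of regulators, Irgm1, Irgm2 and Igtp (also called Irgm3), sits on the cell's own membranes and keeps the effector IRGs inactive there. In most cells the family is low at rest and strongly induced by interferon-gamma, and to a varying degree by type I interferons, whose signal reaches the nucleus with STAT2 and IRF9.

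The promoter sequences are shown first because interferon signals act on genes through 2 short DNA motifs. The core of the interferon-stimulated response element (ISRE) was searched as GAAANNGAA on both strands, and the gamma-activated site (GAS) as TTCNNNGAA, which reads the same on both strands. RefSeq promoter windows on GRCm38.p6, with 250 bases before and 50 after a start site, were at hand for 7 of the 10 genes, and each matched GRCm39 at exactly 1 place. Entries for Gbp4, Gbp6 and Iigp1 were not used here. An ISRE core lay in the window of 6 of the 7 genes, against 8.56% of the 32851 promoter windows in the table. A GAS lay in 3 of the 7, Gbp7, Igtp and Irgm2, against 8.3% of all windows, and 1.07% of all windows held both motifs. The Ifi47 window and the second of the Gbp3 windows held neither motif. Each line below gives 30 bases of the gene's own strand, 5′ to 3′, with the motif in capitals. On the plus strand genes of chromosome 3 the ISRE core is read on the opposite strand and appears as TTCNNTTTC.
Gbp2, chr3:142326356-142326385, plus strand: ctcttttagtTTCACTTTCactgtcttaag
Gbp3, chr3:142265754-142265783, plus strand: acacagtTTCAGTTTCTATTTCccagatcc
Gbp7, chr3:142236035-142236064, plus strand: tgtgtgcagtTTCAGTTTCagttctccatc
Gbp7, chr3:142235990-142236019, plus strand, GAS: tTTCCAGGAAaagcagaagcTTCTCAGAAa
Irgm1, chr11:48762255-48762284, minus strand: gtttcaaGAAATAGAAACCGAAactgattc
Igtp, chr11:58090332-58090361, plus strand, GAS then ISRE: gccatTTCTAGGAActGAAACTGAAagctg
Irgm2, chr11:58105723-58105752, plus strand, GAS then ISRE: gccatTTCCAGGAActGAAACTGAAagctg
In Gbp3 and Irgm1, 2 ISRE cores overlapped. The windows of Igtp and Irgm2 were identical at 29 of 30 bases, with the single difference T9C, counted from 1 at the 5′ end of the Igtp window. In GENCODE, exons of transcripts that start further upstream overlap the windows of Gbp2, Gbp3, Irgm1 and Igtp and the ISRE window of Gbp7. Exons of Gm74350 also overlap the Irgm1 window, and those of Gm66604 overlap both Gbp7 windows. The Irgm2 window lies within that gene but in no annotated exon. A match of letters is a description of the sequence and does not show that a factor binds there.

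The libraries held 26697990 to 56033479 counted reads (median 32500202), and 17050 genes passed the filter on low counts. The 11 endothelial markers summed to 562812 to 719500 normalized counts in OSM mice and to 539711 to 675795 in PBS mice. Ptprc, the gene of CD45, had at most 22 reads in any mouse. Of 12 markers of T and natural killer cells, 7 had 0 reads in all mice (Cd3d, Cd8a, Nkg7, Gzma, Gzmb, Ncr1 and Il2rb). The other 5 had reads in 1 to 4 mice, with up to 314 for Klrb1c and 120 for Cd4. The 12 markers summed to 0 to 192 normalized counts in OSM mice, highest in OSM mouse 9, and to 0 to 176 in PBS mice. The 15 microglia and macrophage markers summed to 3150 to 4276 in OSM mice and 2870 to 6844 in PBS mice. Photoreceptor markers summed to 7372 to 191970 in OSM mice (median 18476) and 13817 to 52938 in PBS mice (median 21214). The highest were OSM mouse 5 at 191970 and OSM mouse 6 at 64061. Erythroid and platelet markers summed to 12472 to 38897 in OSM mice and 4328 to 20927 in PBS mice, and 5 of the 7 tested were higher at an unadjusted p under 0.05, with a median log2 fold change of 1.1 over the 7. At an adjusted p under 0.05 edgeR called 0 of these markers, DESeq2 called 4 and edgeR without a filter on low counts called 5. Mural cell markers summed to 20555 to 37938 in OSM mice and 13912 to 75022 in PBS mice, and 10 of 10 were lower in OSM mice (median log2 fold change -0.68), with 0 called by edgeR or DESeq2 and 4 without the filter. Müller glia and astrocyte markers summed to 14496 to 28513 and 11815 to 22239, and granulocyte markers to at most 70.7 and 357. The part of these transcripts in the results below was not tested. In bulk samples, fewer cells that express a gene and less RNA per cell cannot be told apart.

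Most of the 10 genes were expressed in the sorted endothelial cells. Levels are compared between genes as RPKM, here reads scaled for library size and for kilobases of merged exons, as a mean over the 11 mice. Gbp2 (31.4 ± 10.7, SD, n = 11), Irgm1 (28.6 ± 9.15) and Gbp3 (27.8 ± 9.4) were highest. Ifi47 (16.3 ± 6.14), Igtp (13.3 ± 5.57), Irgm2 (13.2 ± 6.74) and Gbp7 (12.7 ± 4.07) came next at a lower level. Gbp3 was above Ifi47 in 11 of 11 mice, whereas the other neighbours within these 7 genes changed places between mice. Iigp1 followed at 3.13 ± 1.54, and its highest mouse (6.12) was below the lowest mouse of Gbp7 (6.84). Gbp4 was lower still at 1.15 ± 0.767, with a range (0.24 to 2.55) that overlapped that of Iigp1 (0.417 to 6.12). Gbp6 was near the limit of detection at 0.0772 ± 0.106, with reads in 6 of 11 mice and never more than 65. The order depends on the gene length used: with the longest transcript in place of merged exons, Irgm1 came first at 47.4, before Gbp2 at 31.4, and 8 of the 10 genes kept their place.

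**Figure D1:**
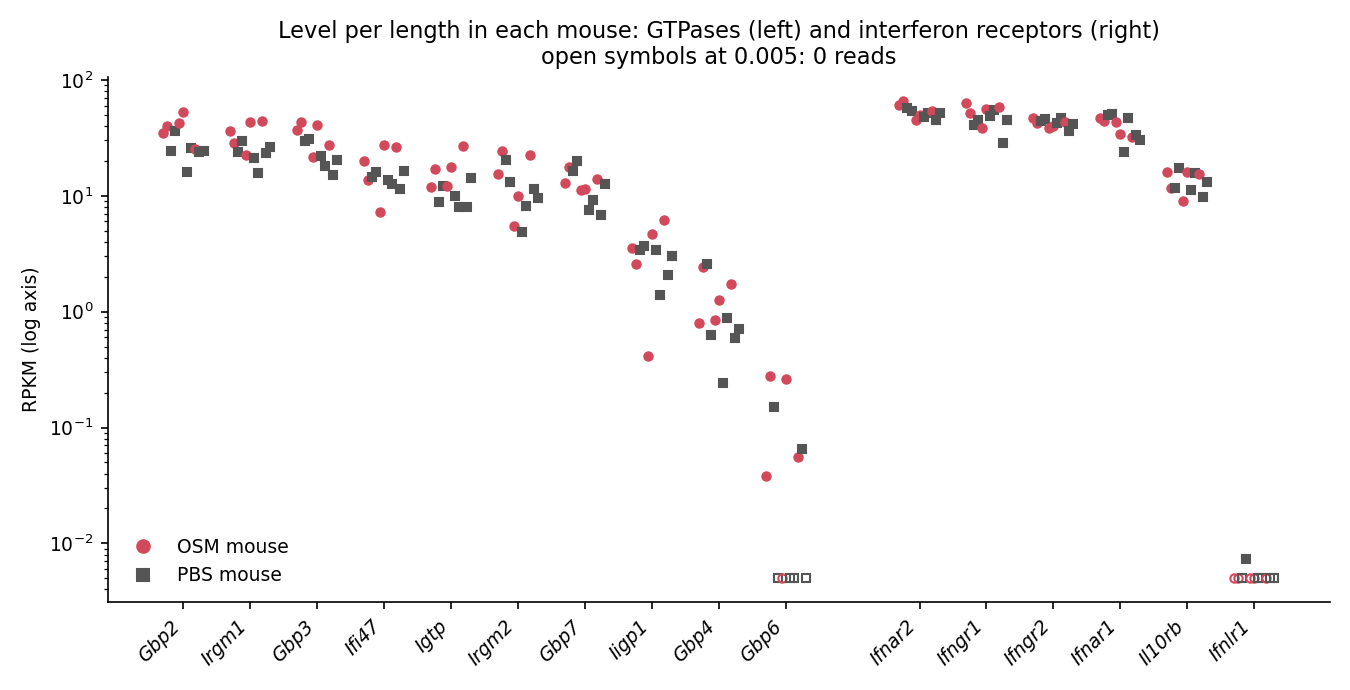
RPKM of each GTPase (left) and each interferon receptor gene (right) on a log axis, with 1 symbol per mouse, circles for OSM and squares for PBS. Gbp2, Irgm1 and Gbp3 sit between 15 and 52.4, and Gbp6 and Ifnlr1 have open symbols at 0.005 for mice with 0 reads.

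All 10 GTPases were on average higher in OSM mice than in PBS mice, by 1.15-fold (Gbp7) to 1.71-fold (Igtp) in the 9 genes with reads in every mouse, but no single gene passed the test. The median log2 fold change of the 10 was 0.57, against -0.01 over all tested genes. With edgeR's quasi-likelihood test, litter as a term and adjustment over all genes, 0 of 10 members had an adjusted p under 0.05, and the share over all 17050 genes was also 0%. The lowest adjusted p of any gene was 0.92. At an unadjusted p under 0.05, 4 members were higher in OSM mice (Gbp2, Gbp3, Igtp and Irgm1) and none was lower, against 2.25% of all genes higher (384) and 846 genes in either direction. The difference was above 0 in all 3 litters for 8 of 10 members, against 11.3% of all genes. For 0 of 10 members did every OSM mouse exceed every PBS mouse, which held for 0.182% of all genes. DESeq2 called 0 members, with 0.763% of its genes called, and 4 members had an unadjusted p under 0.05, against 6.07% of its genes in either direction. In edgeR with all genes kept regardless of their counts, 2 members were called, Irgm1 (adjusted p = 0.0053) and Igtp (adjusted p = 0.038), with 0.225% of 28940 genes. The members were listed with earlier results of these data known, so these counts describe the list and give no independent support.

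**Figure D2:**
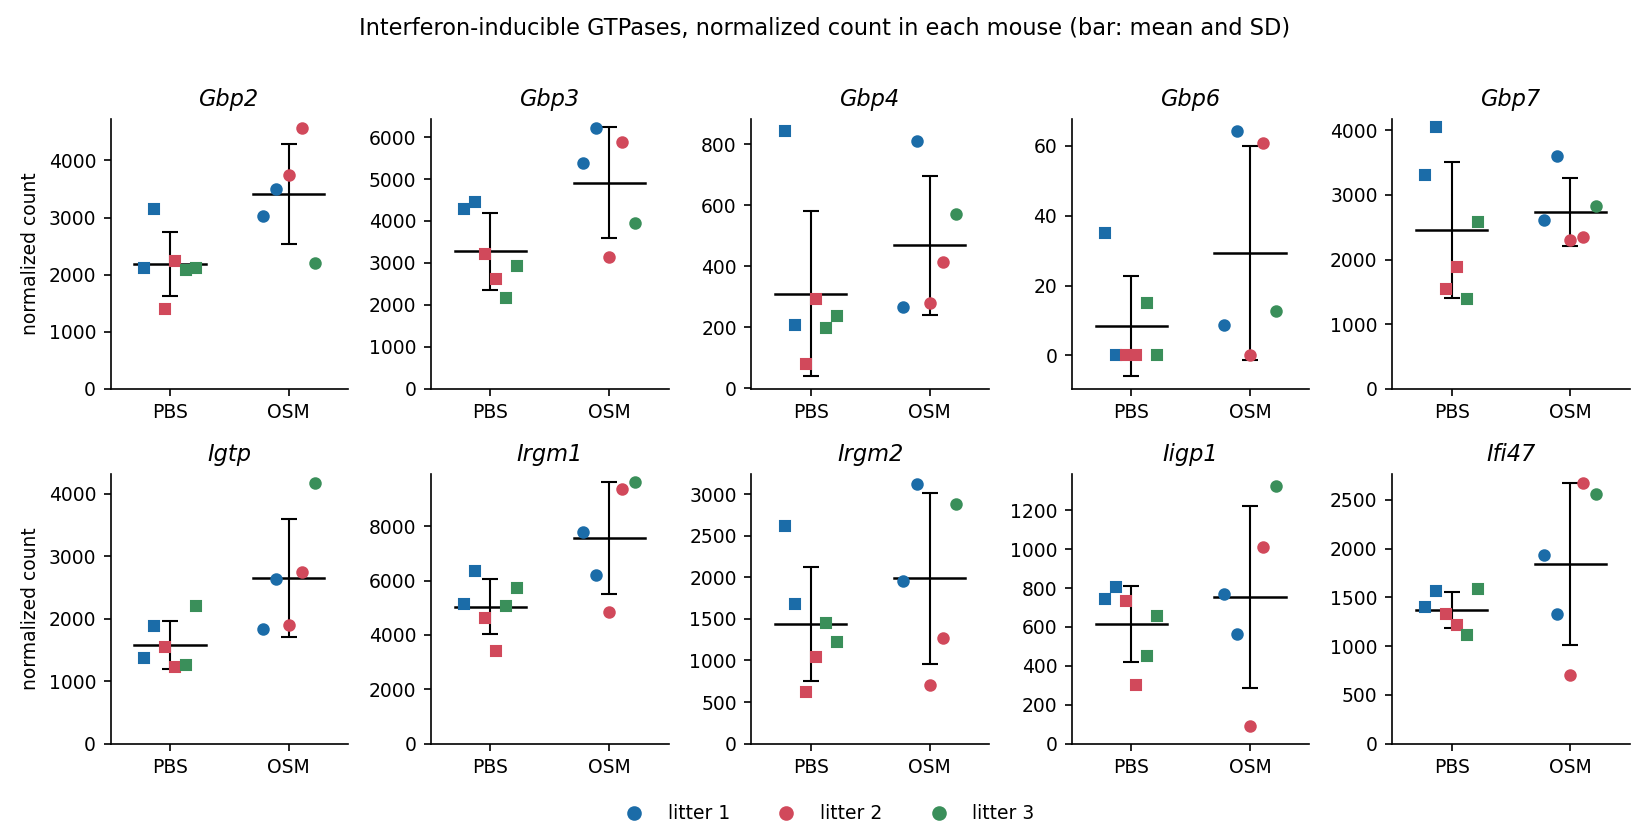
Normalized count of each GTPase in each mouse, with PBS mice as squares, OSM mice as circles, colours for the 3 litters and bars for the mean and SD. The group means are higher in OSM mice in all 10 panels, and the groups overlap in all 10.

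Among the listed guanylate-binding proteins, those of the chromosome 3 cluster were the abundant ones. Gbp2 (chr3:142326349-142343779, plus strand) encodes a GBP that carries a lipid anchor and gathers on parasite vacuoles. Its normalized counts, reads scaled to a library of mean size, were 3021, 3507, 3739, 4573 and 2197.5 in OSM mice 1, 2, 5, 6 and 9, and 1390 to 3157 with a median of 2115 in PBS mice. OSM mouse 9 lay among the PBS mice, the other 4 OSM mice were above 5 of the 6 PBS mice, and 3 were above all of them. Its log2 fold change was 0.58 (SE 0.22, 95% interval 0.1 to 1.07, adjusted p = 0.955). Within litters 1, 2 and 3 the log2 difference was 0.34, 1.23 and 0.06, so litter 2 carried most of it, and without litter 2 the fitted value was 0.21.

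Gbp3 (chr3:142265731-142278979, plus strand) encodes another GBP of the same cluster. Its normalized counts were 5387, 6223, 3139, 5884 and 3952 in OSM mice 1, 2, 5, 6 and 9. In PBS mice they were 2173 to 4455 with a median of 3073. OSM mice 1, 2 and 6 exceeded every PBS mouse, and OSM mouse 5 lay near the PBS median. The fit gave a log2 fold change of 0.55 (SE 0.16, 95% interval 0.19 to 0.91, adjusted p = 0.955). Of the 10 genes it was the most even across litters, at 0.4, 0.57 and 0.65.

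Gbp7 (chr3:142236044-142255910, plus strand) encodes a GBP linked to the assembly of the NADPH oxidase on phagosomes. It had 2608, 3602, 2309, 2349 and 2825 normalized counts in OSM mice 1, 2, 5, 6 and 9, and 1397 to 4047 with a median of 2233 in PBS mice. The 2 highest values came from litter 1, PBS mouse 4 and OSM mouse 2, and no OSM mouse exceeded every PBS mouse. At 0.2 on the log2 scale (SE 0.2, 95% interval -0.23 to 0.64, adjusted p = 1), the fold change was the smallest of the 10, with -0.26 in litter 1 and 0.45 and 0.57 in litters 2 and 3. Of its 50-base windows, 15.7% also occur in other genes, mainly in the pseudogene Gm43802, with which it shares 10.6% of its exon bases.

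The chromosome 5 members were scarce. Gbp4 (chr5:105263633-105287609, minus strand) had 266, 809, 279, 413 and 571 normalized counts in OSM mice 1, 2, 5, 6 and 9, and 79.4 to 843 with a median of 221 in PBS mice. Its highest value was PBS mouse 3 at 843, and the next PBS mouse was at 292. The log2 fold change was 0.72 (SE 0.51, 95% interval -0.41 to 1.84, adjusted p = 1), and 1.18 without PBS mouse 3. Gbp6 (chr5:105418568-105443751, minus strand) had 9, 65, 51 and 21 reads in OSM mice 1, 2, 6 and 9 and 0 in OSM mouse 5. Among PBS mice it had 27 reads in mouse 3 and 15 in mouse 10, and 0 in mice 4, 7, 8 and 11. Its log2 fold change of 2.74 had an interval from -2.87 to 8.35, and leaving out 1 mouse moved it between 0.84 (without OSM mouse 6) and 6.34 (without PBS mouse 3). As 61.6% of its 50-base windows also occur in other genes, mainly Gm43302 and Gbp10, these reads cannot be given to Gbp6 with certainty.

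The regulatory IRGs lie on chromosome 11, and Igtp had the largest fold change among the members with reads in every mouse. Igtp (chr11:58089840-58098417, plus strand), a regulator found on the endoplasmic reticulum and on lipid droplets, had 1836, 2632, 1893, 2751 and 4174 normalized counts in OSM mice 1, 2, 5, 6 and 9. In PBS mice it had 1233 to 2198 with a median of 1460. OSM mice 2, 6 and 9 exceeded every PBS mouse, and 4 of the 6 PBS mice were below every OSM mouse. Its log2 fold change was 0.77 (SE 0.21, 95% interval 0.31 to 1.24, adjusted p = 0.955), with 0.45, 0.72 and 1.33 in litters 1, 2 and 3. The value was lowest without OSM mouse 9, at 0.59, and highest without litter 1, at 0.96.

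Irgm1 (chr11:48752795-48763164, minus strand), a regulator on the Golgi, mitochondria and lysosomes, was the member with the most reads. Its normalized counts were 7792, 6203, 4845, 9374 and 9627 in OSM mice 1, 2, 5, 6 and 9, and 3401 to 6369.9 with a median of 5089.8 in PBS mice. OSM mice 1, 6 and 9 exceeded every PBS mouse, whereas OSM mouse 5 was below the PBS median. OSM mice were higher by a log2 fold change of 0.63 (SE 0.18, 95% interval 0.22 to 1.03, adjusted p = 0.955), with 0.28, 0.77 and 0.84 in litters 1, 2 and 3.

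Irgm2 (chr11:58090444-58113615, plus strand), a regulator of the same group next to Igtp, had 1954, 3122, 702, 1275 and 2880 normalized counts in OSM mice 1, 2, 5, 6 and 9. In PBS mice it had 619 to 2615 with a median of 1339. The groups overlapped over almost their whole range, and mice of litter 1 were high in both groups. A log2 fold change of 0.47 was fitted (SE 0.25, 95% interval -0.07 to 1.02, adjusted p = 0.955), with 0.24, 0.24 and 1.11 in litters 1, 2 and 3. Igtp and Irgm2 share 162 exon bases, which is 4.33% of the exon bases of Irgm2.

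The effector IRGs, Iigp1 and Ifi47, varied widely between OSM mice. Iigp1 on chromosome 18, the effector also known as Irga6, had 772, 563, 90.4, 1013 and 1327 normalized counts in OSM mice 1, 2, 5, 6 and 9, and 303 to 804 with a median of 696 in PBS mice. OSM mouse 5 had the lowest value of all 11 mice, and OSM mice 6 and 9 had the highest. Its log2 fold change was 0.29 (SE 0.51, 95% interval -0.84 to 1.43, adjusted p = 1). Within litters 1 and 2 the log2 difference was -0.23 and -0.63, against 1.28 in litter 3, and the fitted value was -0.19 without OSM mouse 6 and -0.07 without OSM mouse 9.

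Ifi47 (chr11:48967412-48987813, plus strand), the effector also called Irgd, showed a similar order of OSM mice. It had 1938, 1327, 702, 2667 and 2557 normalized counts in OSM mice 1, 2, 5, 6 and 9, whereas the PBS mice lay close together at 1114 to 1582 with a median of 1366. OSM mice 1, 6 and 9 exceeded every PBS mouse, and OSM mouse 5 was below all of them. The fit gave a log2 fold change of 0.44 (SE 0.3, 95% interval -0.22 to 1.1, adjusted p = 1), with 0.12, 0.1 and 0.94 in litters 1, 2 and 3. It was 0.64 without OSM mouse 5 and 0.13 without OSM mouse 6. Its exons overlap those of Or2v1 and, on the opposite strand, Gm12188, by 7.63% in all.

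**Figure D3:**
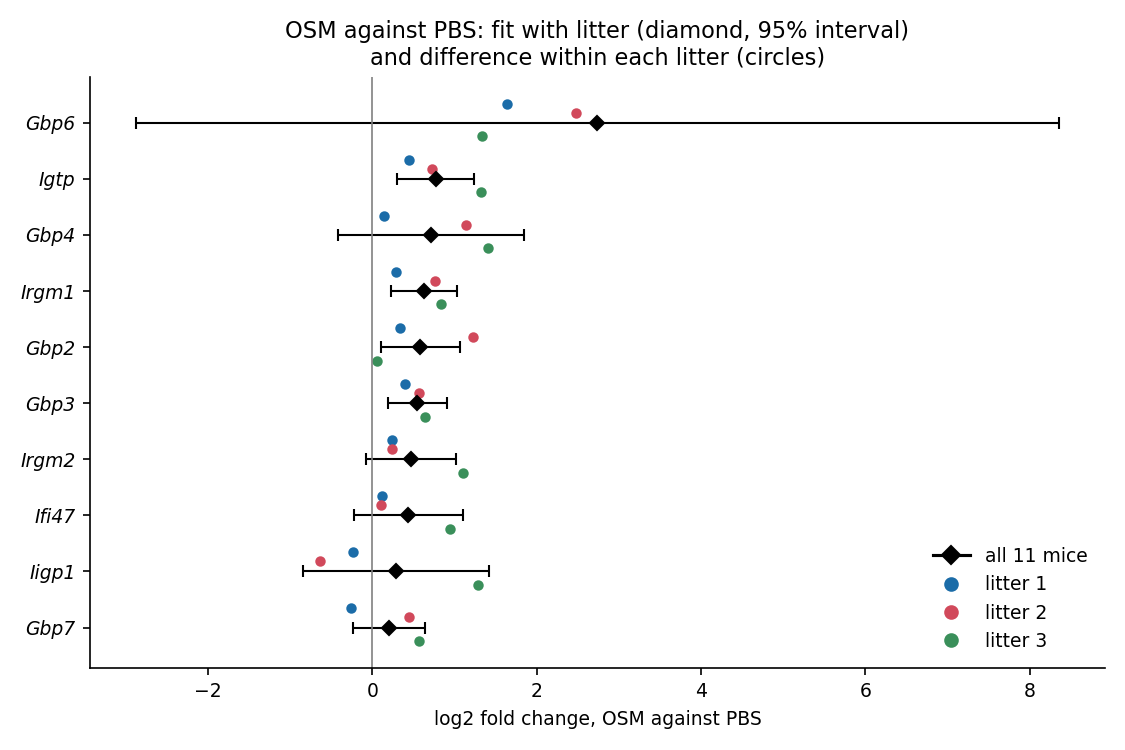
log2 fold change of each GTPase in OSM against PBS mice, with diamonds and bars for the fit over 11 mice and its 95% interval, and circles for the difference within each litter. The diamonds lie above 0 for all 10 genes, and the intervals of Gbp2, Gbp3, Igtp and Irgm1 do not reach 0.

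Within litters, the median log2 difference of the 10 genes ran from 0.26 (litter 1) over 0.65 (litter 2) to 1.03 (litter 3), and in the last the only OSM mouse was mouse 9, the most deeply sequenced. Every OSM mouse exceeded every PBS mouse of its litter for 1 member in litter 1, 4 in litter 2 and 9 in litter 3. The same held for 16.2%, 15.2% and 32.5% of all genes. A test of whether the treatment effect differed between litters called 0 members and 0% of all genes in edgeR, and 0 members had an unadjusted p under 0.05, against 1095 of all genes. Differences between the litters themselves were called for 0 members, against 0.0176% of all genes (3), with 3 members at an unadjusted p under 0.05, against 10.3% of all genes. These were Gbp3, Gbp7 and Irgm2, each lowest on average in litters 2 or 3 and highest in litter 1. The same 3 were called when low counts were not filtered, with adjusted p of 0.0425, 0.025 and 9.7e-05 in edgeR, against 2.16% of 28940 genes.

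The mice themselves fell into a pattern that did not follow treatment alone. Averaged over the 10 genes, log2 CPM minus the mean of all mice was 0.25, 0.74, -0.72, 0.73 and 0.65 in OSM mice 1, 2, 5, 6 and 9. In PBS mice it was 0.43, -0.06, -0.76, -0.65, -0.32 and -0.29 in mice 3, 4, 7, 8, 10 and 11. OSM mouse 5 thus stood with its PBS littermates 7 and 8, and only Gbp2 was above its own mean there. PBS mouse 3 stood with the OSM mice, mainly through Gbp4, Gbp6 and Irgm2. These means lean on Gbp6, and with Gbp6 left out, a choice made after the values were seen, PBS mice 3 and 4 (0.24 and 0.16) lay near OSM mouse 1 (0.23), all of litter 1. OSM mice 2, 6 and 9 remained the highest at 0.49, 0.49 and 0.63, and OSM mouse 5 was at -0.57. PBS mouse 4 had 7 of the 10 genes above their own mean and PBS mouse 3 had 6. OSM mouse 5 was also the library with the most photoreceptor transcripts (191970 normalized counts over 10 markers), and PBS mouse 3 the one with the most detected genes (20898, against 16635 to 17697 elsewhere). Without OSM mouse 5 the median log2 fold change of the members was 0.64, without OSM mouse 6 it was 0.42, and without all of litter 2 it was 0.5.

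**Figure D4:**
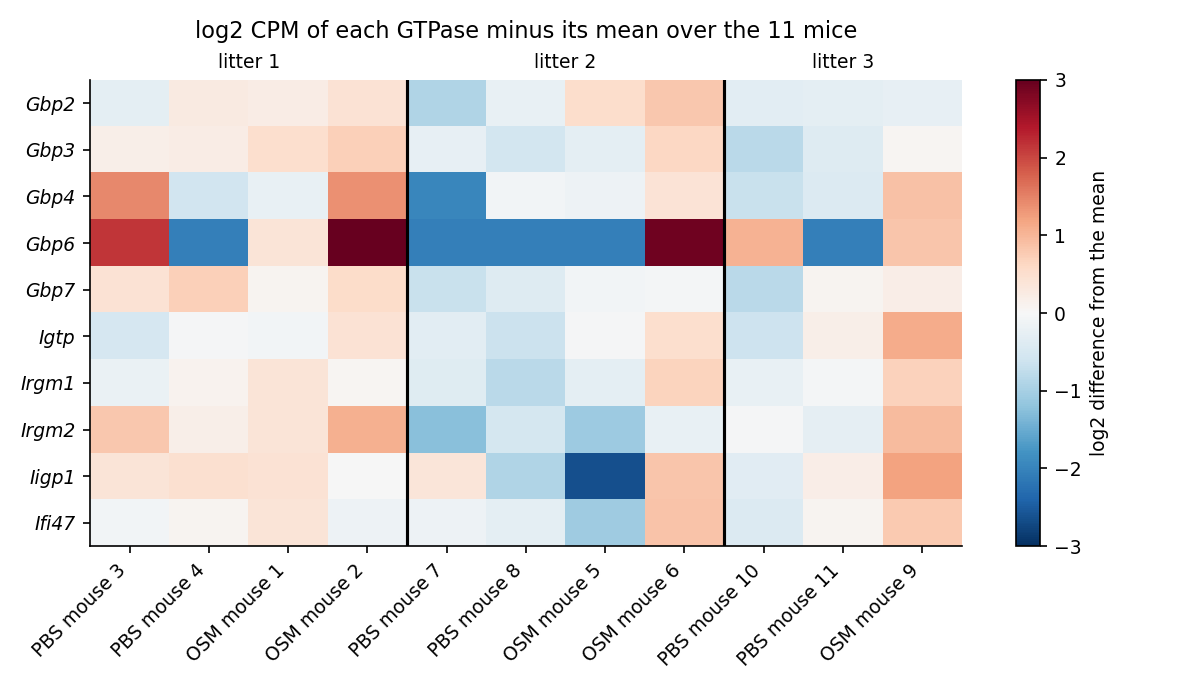
log2 CPM of each GTPase minus its mean over the 11 mice, with mice in columns ordered by litter and treatment, red for higher and blue for lower. OSM mice 2, 6 and 9 are mostly red, and OSM mouse 5 resembles PBS mice 7 and 8.

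The degree to which genes of the family varied together across mice differed between pairs. After removal of the litter means, Pearson's r over the 11 mice was between -0.176 (Gbp2 and Iigp1) and 0.915 (Gbp3 and Irgm1), with a median of 0.494 over 45 pairs. The effectors Iigp1 and Ifi47 had an r of 0.901, and Gbp3 and Igtp of 0.9. Igtp and Irgm2, neighbours with nearly the same motif window, had 0.558. The points of each pair share their libraries, and the treatment difference is part of these values.

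Other interferon-inducible GTPases showed a similar median with fewer reads. Of 18 matched genes, 16 had reads in at least 1 mouse and 11 were tested, with 8 higher and 3 lower in OSM mice, a median log2 fold change of 0.59 and none called. Gbp9, a GBP of the chromosome 5 cluster, had the most reads of them, with 2388, 1912, 805, 2247 and 2151 normalized counts in OSM mice 1, 2, 5, 6 and 9. In PBS mice it had 806 to 2037, which gave a difference of 0.59 on the log2 scale (SE 0.26, adjusted p = 0.955). OSM mouse 5 was again the lowest OSM mouse, as it was for Gbp5, which had a log2 fold change of 0.29 (SE 0.25). Tgtp2, which encodes another effector IRG, had 76.3, 74.1, 64.9, 67.8 and 203 normalized counts in OSM mice and 3.2 to 43.7 in PBS mice. It was the only gene of this list in which every OSM mouse exceeded every PBS mouse, with 1.77 as its log2 fold change (SE 1.02, adjusted p = 0.979). Its close copy Tgtp1 had a log2 fold change of 1.11 (SE 0.73). Mx2, an antiviral GTPase of the dynamin family, had 0.97 (SE 1.17), and 9930111J21Rik2 had 0.73 (SE 0.74). Those with values below 0 were 9930111J21Rik1 (-1.53, SE 1.9), Gbp10 (-2.54, SE 3.06) and Gvin1 (-0.2, SE 1.03). Gvin2 was at 0.1 (SE 0.92), and Gm12250, with reads in 3 mice, at 2.43 (SE 3.03). Gbp2b, Gbp8, Gbp11, Mx1 and Gvin3 had too few reads to test, and Gm4841 and F830016B08Rik had 0 reads in all mice.

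Interferon genes themselves were not detected in the sorted cells. Of 14 ligand genes, among them Ifng and Ifnb1, 13 had 0 reads in all 11 mice, and Ifnk had 6 reads in 1 OSM mouse. The receptor genes, in contrast, were expressed. Ifngr1 and Ifngr2, the subunits of the interferon-gamma receptor, had 48.4 and 42.7 RPKM, and Ifnar1 and Ifnar2, those of the type I receptor, had 39.6 and 52.9. Il10rb, a subunit that the type III receptor shares with others, had 13.4, while Ifnlr1, its specific subunit, had 1 read in 1 mouse. Of the 5 receptor genes tested, 3 were higher and 2 lower in OSM mice, and none was called. Their log2 fold changes were 0.28 (SE 0.17) for Ifngr1, -0.04 (SE 0.09) for Ifngr2, -0.0035 (SE 0.15) for Ifnar1, 0.09 (SE 0.09) for Ifnar2 and 0.05 (SE 0.2) for Il10rb.

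Among 13 kinase and transcription factor genes, 7 were higher and 6 lower, with a median log2 fold change of 0.08. In edgeR as above none was called, while 4 higher and 1 lower had an unadjusted p under 0.05, and without the filter on low counts Irf7 was called (adjusted p = 0.0137). Among the higher ones were Stat2 (0.74, SE 0.33), Irf9 (0.4, SE 0.15) and Irf7 (0.86, SE 0.36), each with an adjusted p of 0.955. Stat2 and Irf9 encode parts of the complex that binds the ISRE, and Irf7 a factor that amplifies type I interferon production. The lower one was Tyk2 (-0.97, SE 0.34), a kinase of the type I receptor, while Jak1, the kinase common to both receptors, was at 0.08 (SE 0.18) and Jak2, which serves the interferon-gamma receptor, at -0.46 (SE 0.23). Irf1, which encodes an interferon-induced factor that itself drives GBP genes, was at -0.01 (SE 0.16), with 2411 ± 713 normalized counts in OSM mice (SD, n = 5) and 2403 ± 393 in PBS mice (n = 6). Irf2, Irf8, Batf2, Nlrc5 and Ciita were at -0.14, 0.44, -1.43, -0.34 and 2.82, the last 3 with reads missing in 2 to 8 mice.

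Of 6 inhibitor genes, 4 were higher and 2 lower, with a median of 0.14. Usp18, which encodes an interferon-induced brake on the type I receptor, was at 0.45 (SE 0.18, adjusted p = 0.955) with an unadjusted p under 0.05. Socs1, the feedback inhibitor of JAK kinases, was at 0.25 (SE 0.44), and the phosphatase gene Ptpn2 at 0.34 (SE 0.27). Ptpn11 and Pias1 were at 0.03 (SE 0.1) and -0.01 (SE 0.21). Ptpn6, a phosphatase gene of blood cells, had 0 reads in all OSM mice and up to 307 reads in 3 PBS mice, with an unadjusted p under 0.05 and an adjusted p of 0.955.

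Of 17 interferon-gamma targets other than GTPases 16 were tested, 14 were higher and 2 lower, the median log2 fold change was 0.44, and none was called. Among the genes of this list with at least 10 counts in every mouse the median was 0.2, and Socs1 stands in this list and among the inhibitors. Psmb8, an immunoproteasome subunit gene, was at 0.53 (SE 0.16) and above every PBS mouse in 4 of 5 OSM mice, and Psmb10 was at 0.28 (SE 0.15). The chemokine genes Cxcl9, Cxcl10 and Cxcl11, which depend on interferon-gamma in many tissues, had reads in 2, 6 and 4 mice. Tap1, a peptide transporter gene for antigen presentation, was at 0.17 (SE 0.15) and Icam1 at -0.15 (SE 0.12). The unadjusted p was under 0.05 for 4 of these genes, Psmb8, Cxcl9, Cd274 and H2-Aa, and the last 3 had reads in 2 to 5 mice.

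Type I interferon-stimulated genes had the highest median of the interferon lists, 0.67. Of 30 listed genes 28 were tested, with 26 higher and 2 lower. In all 3 litters 22 were higher, against 11.3% of all genes. At an unadjusted p under 0.05, 12 were higher, against 2.25% of all genes, and none was called in edgeR as above. The list was chosen with earlier results of these data known. DESeq2 called 2 of them, Trim30a (adjusted p = 0.00387) and Isg20 (adjusted p = 0.029), and edgeR without the filter called 2 others, Isg15 (adjusted p = 0.00164) and Ifi44 (adjusted p = 0.00291). The shares called over all genes were 0.763% in DESeq2 and 0.225% in edgeR without the filter. Isg15, a ubiquitin-like modifier, had 2958 ± 1304 normalized counts in OSM mice (SD, n = 5) and 1580.1 ± 479 in PBS mice (n = 6), a log2 fold change of 0.92 (SE 0.31). Isg20, an exonuclease gene, was at 1.11 (SE 0.3), Ifit1 at 0.86 (SE 0.26) and Bst2, the virus-tethering protein, at 0.53 (SE 0.18). For Isg15 the log2 difference was 0.08, 0.98 and 1.89 in litters 1, 2 and 3.

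**Figure D5:**
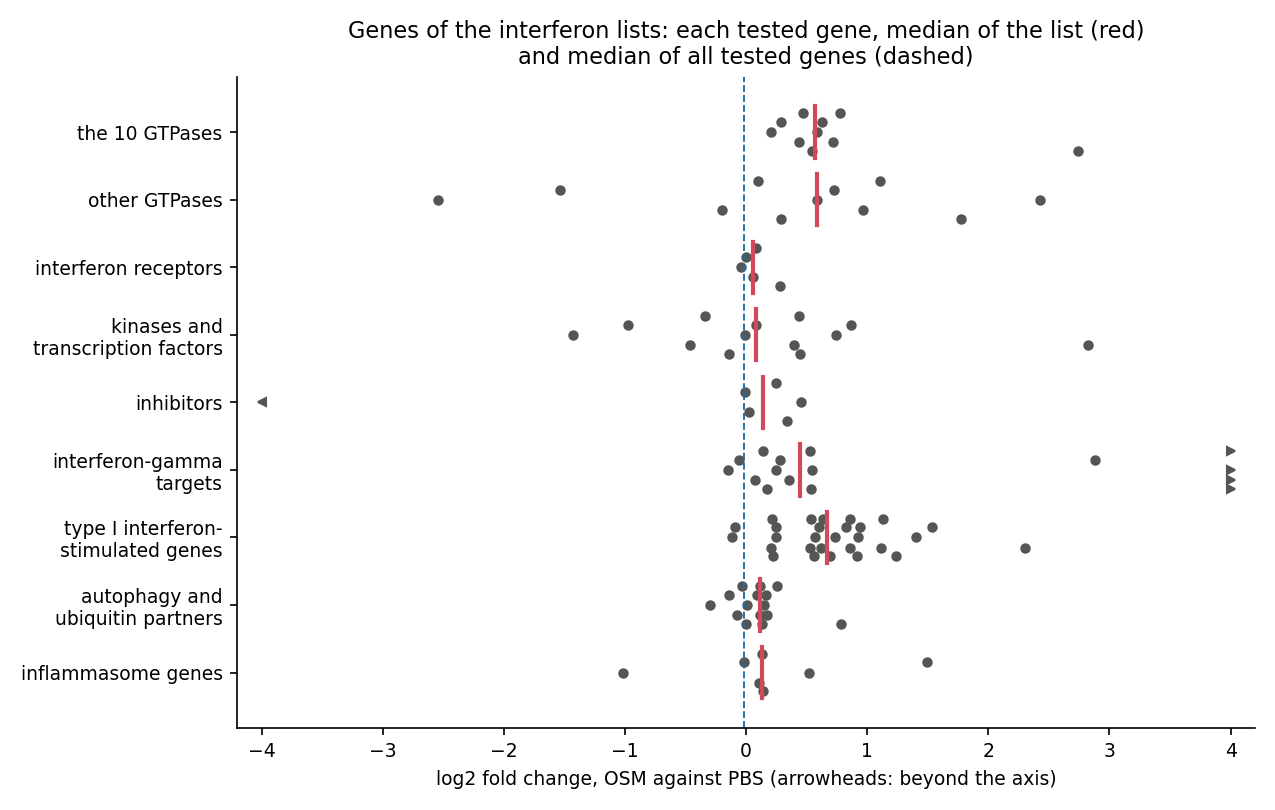
log2 fold change in OSM against PBS mice of every tested gene of the interferon lists, with red bars for the median of each list, a dashed line for the median of all tested genes and arrowheads for values beyond 4. The medians of the 10 GTPases (0.57), the other GTPases (0.59) and the type I interferon-stimulated genes (0.67) lie to the right of those of the receptors (0.05) and the autophagy partners (0.11).

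Partners through which GTPases reach or mark vacuoles were expressed in the sorted cells. Of 15 autophagy conjugation and ubiquitin genes, all tested, 11 were higher and 4 lower, with a median of 0.11 and none called. Atg5 was at 0.17 (SE 0.18), Atg7 at -0.29 (SE 0.22) and Atg3 at -0.14 (SE 0.14), which encode parts of the conjugation system that loads GTPases onto vacuoles. Atg16l1, of the same system, was at 0.78 (SE 0.24, adjusted p = 0.955), with an unadjusted p under 0.05 and 0.76, 0.7 and 0.79 in litters 1, 2 and 3. Sqstm1, a ubiquitin adaptor, also had an unadjusted p under 0.05, at 0.15 (SE 0.06). Gabarap, a ubiquitin-like protein at the end of that system, had 11846 ± 1264 normalized counts in OSM mice (SD, n = 5) and 11712 ± 833 in PBS mice (n = 6). Of 8 inflammasome genes linked to GBPs 7 were tested, with 5 higher, 2 lower, a median of 0.13 and none called or at an unadjusted p under 0.05. Nlrp3 had 0 reads in all mice and Casp1 had reads in 3, while Casp4, the sensor of bacterial lipopolysaccharide, was at 0.57 RPKM and a log2 fold change of 0.14 (SE 0.8). Gsdmd, the pore protein, was at 0.13 (SE 0.33).

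The genes whose pattern over the 11 mice was most like the mean of the 10 GTPases were picked from 12000 candidates with at least 50 reads per mouse on average, after removal of litter means. They are the extremes of that many comparisons and are named as a description. The mean of the 10 GTPases leans on Gbp6, whose log2 CPM ran from -2.06 to 2.99 around its own mean before litter means were removed. The ranking was not repeated without Gbp6, and the treatment difference is part of these r values. The order by Pearson's r was Cmpk2 (0.952), Bst2 (0.926), Ulk2 (0.922), Ifit1 (0.912), Bola3 (0.881), Ifitm3 (0.881), Ces2e (0.878), Szrd1 (0.877), Inka1 (0.875) and Wdcp (0.875). Spearman's rho was lower, between 0.627 (Ces2e) and 0.809 (Bst2 and Ifit1). Of these, Cmpk2, Bst2 and Ifit1 belong to the list of type I interferon-stimulated genes. Cmpk2, a mitochondrial nucleotide kinase gene, had 1285 ± 575 normalized counts in OSM mice (SD, n = 5) and 718 ± 334 in PBS mice (n = 6).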

How the data were processed

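Count data of 11 mice were used. The authors deposited unnormalized counts, whole numbers of reads for each gene. The labels name STAR, featureCounts and the build GRCm39, and single reads came from cDNA primed on poly(A) and amplified by PCR. Without molecular identifiers, intervals rest on the spread between mice. Of 55359 genes, 54749 were in GENCODE vM39, which gave symbols, positions and merged exon lengths. OSM and PBS mice were compared with edgeR 4.0.16 in R 4.3.3 (TMM, factors 0.972 to 1.02, filterByExpr with a minimum count of 10, robust quasi-likelihood fit, litter and treatment as terms, Benjamini-Hochberg adjustment, threshold 0.05). Standard errors were derived from the F statistic. Log2 CPM for differences within litters and for correlations used a prior count of 2. DESeq2 1.42.0 was an alternative, besides other filters and scaling, thinning to the smallest library, no litter term and leaving out mice or litters. The fits were tested first on simulated data without differences between litters, where DESeq2 made more false calls than edgeR. The members and lists were chosen with earlier results of these data known. The genes named are the 10 members, members of the fixed pathway lists and the 10 genes most like them by r. Tgtp2, the named interferon targets and the autophagy genes were picked with their values in view. In 2 of the deposited files the column header names another mouse number than the label (PBS mice 10 and 11), and the labels were followed.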

Additional observations from a re-analysis of the deposited data

Results flagged for a closer look

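Among the 20 groups of mice checked (10 GTPases in 2 treatments), 1 value stood apart from its group: Gbp4 in PBS mouse 3, at 843.27 normalized counts against 292.33 in the next highest PBS mouse. The gap took up 0.721 of the range of the 6 PBS mice, more than Dixon's critical value for 6 samples. Chance gives such a value in about 1 of 20 groups. PBS mouse 3 also had the most reads of Gbp6 (27) and the most normalized counts of Irgm2 (2615) among PBS mice, and the most detected genes of all libraries (20898). The part of the latter in the Gbp4 value was not tested.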

How the results depend on the processing

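Over 21 alternatives, no setting turned the direction of a GTPase other than Iigp1, whose log2 fold change was -0.064 without litter 3 and -0.194 to 0.57 when each mouse was left out. The count of called genes was 0 in edgeR as reported, 65 without a filter on low counts and 168 in DESeq2, and 0 in all other settings, also with each mouse left out (0 to 0). The count of called members was 2 without a filter (Igtp at 0.77 and Irgm1 at 0.63) and 0 in the other 20. Members called for differences between litters were 3 without a filter and 0 in the other 12 settings run for it (each mouse left out and DESeq2 size factors). The median of the members ran from 0.42 (without OSM mouse 6) to 0.7 (without litter 1), and members with an unadjusted p under 0.05 from 3 to 6. On simulated counts DESeq2 also made more false calls than edgeR. Those counts had no differences between litters, and their spread was the one estimated by edgeR or a fixed one. They therefore cannot show why DESeq2 called more genes here. The cause of the additional calls without a filter was not tested. No paired analysis was possible because mouse numbers are not shared between the groups. Litter was a term in the model, and without it 4 members had an unadjusted p under 0.05. Gbp6 had at most 65 reads in a mouse, and the part of sequencing depth in this was not tested.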
